A study of Mus musculus with 8 samples.

Results

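The genes described here encode the outer layer of the Wnt pathway: the Wnt ligands, the Frizzled receptors, the LRP5 and LRP6 co-receptors and the secreted antagonists of the SFRP, DKK and WIF families, with the feedback gene Axin2. They were taken by symbol, as every gene named Wnt, Fzd, Sfrp or Dkk with a number, Dkkl1, Wif1, Lrp5, Lrp6 and Axin2. This gave 43 of the 23523 genes: 19 ligands, 10 receptors, 10 antagonists by family name, 2 co-receptors, Axin2 and the antisense transcript Fzd10os. Fzd10os matches by name but encodes no receptor. RNA of these genes was measured in 5 mouse glioblastomas and 3 samples of normal mouse brain. The tumours arose after a lentiviral vector that carries HrasG12V, an activated Ras oncogene, and an shRNA against p53, and the GFP+ tissue was dissected away from normal brain at the clinical endpoint. Normal brain carries no vector in the labels, and the brain region, strain, age and the cells that the vector entered are not stated in the sources used. Whether the samples of a group are separate animals is also not stated, so the p-values measure the spread between these samples, which may be technical.

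Wnt proteins are lipid-modified secreted signals that are made with the help of the acyltransferase Porcn and carried to the cell surface by Wls. When a Wnt joins a Frizzled with LRP5 or LRP6, the complex of Axin, APC and GSK3 that destroys beta-catenin is blocked, and beta-catenin enters the nucleus and works with TCF and LEF factors. Some ligands, such as Wnt5a and Wnt11, act mainly through other routes that involve Ror, Ryk and planar polarity proteins. In the brain the pathway patterns the embryo, guides axons and, through Wnt7a and Wnt7b, builds and maintains the blood-brain barrier.

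Levels are given as CPM, fragments relative to the TMM-scaled size of the library, or as FPKM, which also divides by transcript length, wherever genes are set beside each other. The libraries held between 5490356 and 15564279 fragments, so that 3 fragments stood for 0.193 to 0.546 CPM in a single library before TMM scaling. Hras averaged 413 ± 75.1 CPM in tumours and 99.5 ± 4.61 CPM in brain (SD, n = 5 and 3). Trp53, the hairpin's target, averaged 4.07 ± 1.51 CPM in tumours and 5.62 ± 1.38 CPM in brain and did not pass (adjusted p = 0.262). Of the cell type lists, 4 of 6 neuronal markers were lower, with summed levels of 235 to 908 CPM in tumours against 6361 to 7480 CPM in brains. All 5 oligodendrocyte markers were lower, at 54.9 to 136 CPM in tumours against 466 to 974 CPM in brains. All 6 macrophage and microglia markers were higher, at 932 to 1365 CPM in tumours against 224 to 249 CPM in brains. In pieces of tissue, fewer cells of a type and less RNA per cell cannot be told apart. The part of these cell types in the results below was not tested. Tumours 4 and 1 stood apart in oligodendrocyte precursor markers, which summed to 957, 146, 256, 1738 and 385 CPM in tumours 1 to 5, against 230, 225 and 233 CPM in brains 1 to 3. Most of that sum in tumours was Pdgfra, at a mean of 572 CPM, which is also in the fibroblast list. Of the 5 precursor markers, Pdgfra was higher, 3 did not pass and Gpr17 was lower, at 7.61 CPM in tumours against 44.7 CPM in brains. Brain 1 stood apart in choroid plexus markers, at 1465 CPM, against 51.2 and 64.2 CPM in brains 2 and 3. It was also the highest brain in oligodendrocyte markers, at 974 CPM, against 466 and 495 CPM.

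The promoter windows below show the sequence next to the members that the results turn on most. Dkk2 had the largest fitted rise among the tested members, Axin2 is the target gene used as a readout of beta-catenin, and Wnt11 is a called member whose window holds a TCF/LEF motif. Each is the 250 bases before the start of the gene in RefSeq on GRCm38.p6, and capitals mark a match to CTTTGAT, the TCF/LEF motif, on either strand.
Dkk2, chr3:132085042-132085291, plus strand: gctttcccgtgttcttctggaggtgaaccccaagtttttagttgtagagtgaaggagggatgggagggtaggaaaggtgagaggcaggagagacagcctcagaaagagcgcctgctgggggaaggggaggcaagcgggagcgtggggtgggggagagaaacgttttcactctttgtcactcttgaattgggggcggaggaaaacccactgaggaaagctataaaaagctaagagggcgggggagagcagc
Axin2, chr11:108920099-108920348, plus strand: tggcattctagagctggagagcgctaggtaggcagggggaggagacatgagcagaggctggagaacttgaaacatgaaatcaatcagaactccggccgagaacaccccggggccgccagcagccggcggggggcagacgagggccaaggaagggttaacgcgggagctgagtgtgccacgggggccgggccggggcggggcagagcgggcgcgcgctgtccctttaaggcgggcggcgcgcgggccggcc
Wnt11, chr7:98834862-98835111, plus strand: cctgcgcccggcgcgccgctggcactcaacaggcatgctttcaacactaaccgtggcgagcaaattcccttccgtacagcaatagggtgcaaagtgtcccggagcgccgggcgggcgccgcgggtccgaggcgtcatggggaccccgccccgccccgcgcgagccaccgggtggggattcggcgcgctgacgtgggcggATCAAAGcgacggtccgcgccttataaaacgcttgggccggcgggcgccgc
Of 32851 such windows, 3.21% held CTTTGAT and 6.75% held the AP-1 motif TGANTCA, searched on both strands; the motifs can share the letters TGAT. RefSeq windows were matched for 28 of the 43 members, and CTTTGAT was found in those of Wnt11 and Wnt5b and TGANTCA in that of Wnt5b, at another start of the gene than CTTTGAT. A match is a description of letters and not a binding site, and Wnt11 has a second start whose window holds neither motif.

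The comparison asked which Wnt genes differ between glioblastoma and normal brain. Of the 43 members, 31 reached the filter on low counts and were tested. Of these, 12 were higher in glioblastoma, 9 were lower and 10 did not pass (edgeR quasi-likelihood test, Benjamini-Hochberg adjusted p threshold of 0.05). Over all 14641 genes tested, 37.1% were higher and 33.9% lower, 71% in all. Among the tested members 38.7% were higher and 29.0% lower, shares near this background, so the number of calls says nothing particular about Wnt genes. Their median log2 fold change was 0.19, beside 0.06 over all tested genes. The groups did not overlap for 11 higher and 9 lower members, beside 36.1% and 34.5% of all genes, 70.6% in all. Of the tested members, 3 reached the filter through the tumours alone (Fzd5, Sfrp4 and Wnt11) and 6 through the brains alone (Dkkl1, Fzd9, Wnt10a, Wnt2b, Wnt3 and Wnt4), which favoured a difference in that direction. Below, log2 fold changes are of glioblastoma over brain, with their SE from 5 tumours and 3 brains, and adjusted p-values are from edgeR.

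**Figure D1:**
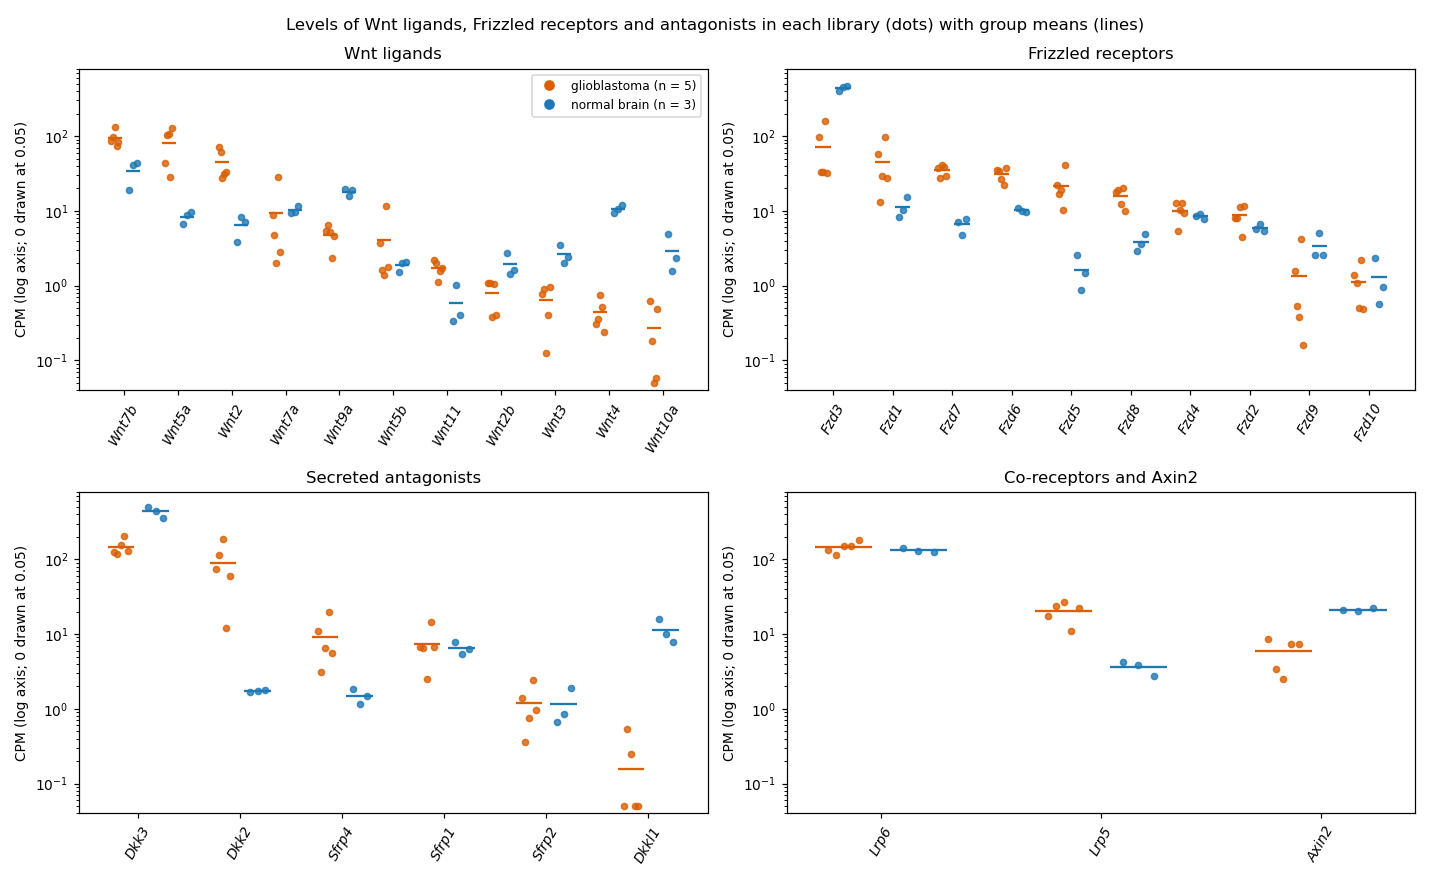
CPM (log axis) of the tested members other than Fzd10os in each library, in 4 panels by role; orange dots are the 5 glioblastomas, blue dots the 3 normal brains, lines the group means, and 0 is drawn at 0.05. Wnt5a, Wnt2, Dkk2 and Fzd5 lie higher in every tumour than in any brain, and Wnt4, Dkkl1, Fzd3 and Axin2 lie lower in every tumour than in any brain.

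Among the ligands, 4 rose, 5 fell, 2 did not pass and 8 had too few fragments to test. Of all tested genes, 37.1% were higher and 33.9% lower. The 3 ligands with the highest mean level in the tumours all rose. Wnt7b, a ligand of the brain vessel barrier, was at 86.6, 97.1, 132, 72.8 and 82.6 CPM in tumours 1 to 5, against 19.1, 41.6 and 43.4 CPM in brains 1 to 3. Every tumour was above every brain, and brain 1 was the lowest library. Wnt7b had a log2 fold change of 1.44 ± 0.31 (adjusted p = 0.00280).

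Wnt5a, the main ligand of the routes that do not use beta-catenin, had the largest rise among the ligands. It was at 43.9, 102, 108, 28.0 and 129 CPM in tumours 1 to 5, against 6.60, 8.95 and 9.68 CPM in brains 1 to 3. The groups did not overlap, and tumours 4 and 1 were the lowest of the tumours. Wnt5a had a log2 fold change of 3.28 ± 0.55 (adjusted p = 0.000713).

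Wnt2, a ligand that acts through beta-catenin in lung and vessel development, was at 72.6, 61.7, 27.6, 31.4 and 32.9 CPM in tumours 1 to 5. Brains 1 to 3 had 3.89, 8.22 and 7.09 CPM. Tumours 1 and 2 were highest, and the other tumours were still above every brain. The log2 fold change was 2.81 ± 0.44 (adjusted p = 0.000479). Most markers of fibroblasts and meninges moved the same way as Wnt2 and Wnt5a. So did all 6 macrophage and microglia markers, 5 of 6 endothelial markers and 3 of 5 pericyte and smooth muscle markers, of which 1 was lower. Of the 7 fibroblast and meningeal markers, 5 were higher, Dcn did not pass and Slc22a6 was not tested. Slc22a6 averaged 0.412 CPM in tumours and 3.34 CPM in brains. The 7 markers summed to 1348 to 2381 CPM in tumours against 112 to 199 CPM in brains, a sum that includes Pdgfra, also a precursor marker. No marker of that list was at 0 in either group as a whole, and their part in the rise of these ligands was not tested.

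Wnt11, another ligand of the routes outside beta-catenin, was low in both groups, at 2.17, 1.98, 1.13, 1.57 and 1.70 CPM in tumours 1 to 5, against 0.338, 1.01 and 0.409 CPM in brains 1 to 3. It rested on 82 fragments in tumours and 12 in brains. The groups did not overlap, with a log2 fold change of 1.5 ± 0.47 (adjusted p = 0.0175). It no longer passed when brain 1 (adjusted p = 0.0757) or brain 3 (0.0794) was left out, and the log2 fold change was 2.14 without brain 2.

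The ligands that fell were Wnt4, Wnt9a, Wnt10a, Wnt3 and Wnt2b. Wnt4, known for kidney and gonad development and present in the nervous system, fell the most. It was at 0.310, 0.361, 0.756, 0.524 and 0.242 CPM in tumours 1 to 5, against 9.47, 10.5 and 12.1 CPM in brains 1 to 3. The tumours held 22 fragments in all and the brains 218. Wnt4 had a log2 fold change of -4.56 ± 0.35 (adjusted p = 8.24e-06), and both groups were narrow.

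Wnt9a was at 5.43, 6.49, 5.17, 2.33 and 4.61 CPM in tumours 1 to 5, against 19.6, 15.9 and 18.9 CPM in brains 1 to 3. Each tumour was below each brain, with a log2 fold change of -1.94 ± 0.30 (adjusted p = 0.000438). Wnt3 was at 0.776, 0.902, 0.126, 0.408 and 0.970 CPM in tumours 1 to 5, against 3.55, 2.02 and 2.45 CPM in brains 1 to 3. It too did not overlap between groups (-2.07 ± 0.52, adjusted p = 0.00646).

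Wnt10a was at 0.620, 0.180, 0, 0.0582 and 0.485 CPM in tumours 1 to 5, against 4.91, 1.59 and 2.32 CPM in brains 1 to 3. Brain 1, the brain with the most choroid plexus and oligodendrocyte marker RNA, was the highest. Wnt10a had a log2 fold change of -3.45 ± 0.78 (adjusted p = 0.00363), and -2.49 without brain 1 and tumour 4 together (adjusted p = 0.0222). Wnt2b was at 1.09, 1.08, 0.378, 1.05 and 0.404 CPM in tumours 1 to 5, against 2.71, 1.44 and 1.64 CPM in brains 1 to 3. Brain 1 was again the highest. The log2 fold change of -1.27 ± 0.48 (adjusted p = 0.0393) did not pass in 10 of 18 alternatives, among them without brain 1 (adjusted p = 0.176), brain 2 (0.0581) or brain 3 (0.0742) and without tumour 3 (0.0648) or tumour 5 (0.0702). The part of choroid plexus tissue or of oligodendrocytes in these 2 falls was not tested. Of the 7 choroid plexus markers, 4 were lower, Aqp1 was higher, Ttr did not pass and Kcnj13 was not tested, and their summed level was 14.0 to 110 CPM in tumours against 51.2 to 1465 CPM in brains.

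Wnt7a and Wnt5b did not pass, and in both the tumours were unequal. Wnt7a, the close relative of Wnt7b, was at 8.69, 4.69, 2.02, 28.5 and 2.83 CPM in tumours 1 to 5, against 9.47, 9.67 and 11.5 CPM in brains 1 to 3. Tumour 4 was above every brain and the other tumours were below every brain. Wnt7a had a log2 fold change of -0.10 ± 0.79 (95% interval -2.04 to 1.84, adjusted p = 0.918), and -1.18 without tumour 4 (adjusted p = 0.0380). Without brain 1 and tumour 4 together it was -1.23 and did not pass (adjusted p = 0.0704). Wnt5b was at 3.72, 1.62, 1.39, 11.6 and 1.78 CPM in tumours 1 to 5, against 1.52, 2.02 and 2.04 CPM in brains 1 to 3. Its log2 fold change was 1.15 ± 0.78 (95% interval -0.76 to 3.05, adjusted p = 0.214), and 0.18 without tumour 4.

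The remaining 8 ligands were at or near the limit of these libraries and were not tested. Wnt1 and Wnt8a had 0 fragments in all libraries. Wnt3a, the standard ligand of the beta-catenin route, had 1 fragment in the tumours and 3 in the brains, and Wnt8b had 1 and 2. Wnt6, Wnt9b, Wnt10b and Wnt16 had 6, 5, 24 and 27 fragments in the tumours, and 11, 17, 9 and 9 in the brains. With no filter on low counts, Wnt9b was lower (log2 fold change -2.82, adjusted p = 0.0329) and the other ligands with any fragment did not pass, with adjusted p-values of 0.0661 for Wnt6 and 0.0947 for Wnt3a. The highest single value was that of Wnt9b in brain 1, at 1.86 CPM, followed by Wnt16 in tumour 5, at 1.62 CPM.

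Per transcript length, the pool of ligand RNA had a different make-up in the 2 tissues. The FPKM of all ligands summed to 59.3 to 93.0 in tumours and 27.1 to 36.2 in brains. Wnt7b, Wnt2 and Wnt5a, picked after their values were seen, made up 89.4%, 93.5%, 95.04%, 72.1% and 92.4% of that sum in tumours 1 to 5, against 34.0%, 55.2% and 52.0% in brains 1 to 3. Wnt7b alone held 30.2% to 45.6% of the ligand FPKM in tumours and 20.6% to 36.4% in brains, so its share overlapped between the tissues although its level did not. Wnt5a held 11.6% to 41.9% in tumours and 6.34% to 6.89% in brains. In tumour 4, Wnt7a and Wnt5b added 14.9% and 9.27%. Wnt9a held 1.16% to 2.16% in tumours and 14.4% to 21.9% in brains, and Wnt4 held 0.0793% to 0.235% in tumours and 8.23% to 9.10% in brains. These shares are sums over the deposited FPKM and carry no test.

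**Figure D2:**
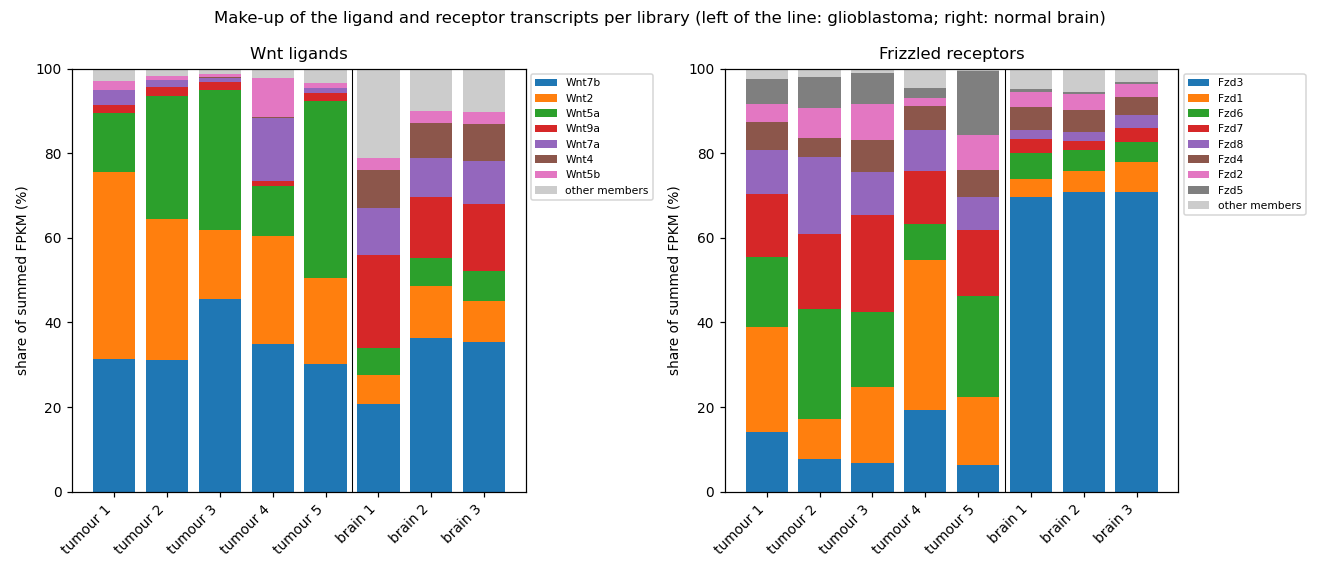
Share of the summed FPKM (%) that each ligand (left) or Frizzled receptor (right) held in each library; tumours 1 to 5 stand left of the vertical line and brains 1 to 3 right of it. Wnt7b, Wnt2 and Wnt5a fill 72.1% to 95.04% of the ligand bars in tumours, and Fzd3 fills 69.6% to 70.8% of the receptor bars in brains.

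Among the Frizzled receptors, all 10 of which were tested, 5 rose (Fzd1, Fzd5, Fzd6, Fzd7 and Fzd8), Fzd3 fell and 4 did not pass. Of all tested genes, 37.1% were higher and 33.9% lower. Fzd3, which guides axons in the developing brain, was the most abundant receptor in normal brain. It was at 98.2, 33.0, 32.9, 160 and 32.0 CPM in tumours 1 to 5, against 403, 449 and 464 CPM in brains 1 to 3. No tumour reached a brain, and tumours 4 and 1 were well above the other tumours. Fzd3 had a log2 fold change of -2.62 ± 0.56 (adjusted p = 0.00270).

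Fzd7, a receptor of stem and progenitor cells in several tissues, was the most even of the receptors among the tumours, with an SD of log2 CPM of 0.25, against 0.37 among the brains. It was at 38.0, 27.6, 41.2, 38.3 and 29.7 CPM in tumours 1 to 5, against 7.10, 4.76 and 7.91 CPM in brains 1 to 3. The groups were far apart beside their spread (2.40 ± 0.24, adjusted p = 3.13e-05). Fzd5 was at 21.9, 16.6, 19.3, 10.1 and 41.0 CPM in tumours 1 to 5, against 2.54, 0.866 and 1.5 CPM in brains 1 to 3. It had the largest fitted rise among the receptors, with tumour 5 highest and tumour 4 lowest (3.74 ± 0.57, adjusted p = 0.000382).

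Fzd8, the closest relative of Fzd5, was at 18.0, 19.3, 12.5, 20.0 and 9.94 CPM in tumours 1 to 5, against 2.88, 3.61 and 4.91 CPM in brains 1 to 3. Its groups did not overlap (2.06 ± 0.32, adjusted p = 0.000458). Fzd6, a receptor of tissue polarity, was at 35.4, 33.9, 26.8, 22.0 and 37.8 CPM in tumours 1 to 5, against 11, 9.96 and 9.54 CPM in brains 1 to 3. Here too each tumour was above each brain (1.62 ± 0.22, adjusted p = 0.000182). The values of Fzd5 and Fzd6 are sums over 2 accessions each; with the most abundant accession alone the log2 fold change was 9.66 for Fzd5 and 5.51 for Fzd6.

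Fzd1 was at 57.1, 13.4, 29.4, 97.2 and 27.7 CPM in tumours 1 to 5, against 8.29, 10.4 and 15.4 CPM in brains 1 to 3. Tumour 2 lay below brain 3, so the groups overlapped, and tumours 4 and 1 were the highest. The log2 fold change of 1.98 ± 0.62 (adjusted p = 0.0186) no longer passed without brain 1 (adjusted p = 0.0691) or without brain 2 (0.0625). Without brain 1 and tumour 4 together it was 1.31 (adjusted p = 0.0620).

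Fzd4, the receptor that also binds norrin in vessels, did not pass. It was at 12.6, 5.41, 10.3, 12.9 and 9.29 CPM in tumours 1 to 5, against 8.63, 9.09 and 7.91 CPM in brains 1 to 3 (0.25 ± 0.29, 95% interval -0.45 to 0.95). Fzd2 was at 8.07, 8.12, 11.2, 4.54 and 11.7 CPM in tumours 1 to 5, against 5.75, 6.64 and 5.45 CPM in brains 1 to 3. Only tumour 4 was below the brains, and the log2 fold change was 0.55 ± 0.33 (adjusted p = 0.158), or 0.73 without tumour 4 (adjusted p = 0.0161). With brain 1 left out as well, Fzd2 did not pass.

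Fzd9 and Fzd10 were low and unequal. Fzd9 was at 1.55, 0.541, 0.378, 4.19 and 0.162 CPM in tumours 1 to 5, against 2.54, 5.05 and 2.59 CPM in brains 1 to 3. Tumour 4 was within the range of the brains and the other tumours were below it. Fzd9 had a log2 fold change of -1.22 ± 0.86 (adjusted p = 0.232), or -2.46 without tumour 4 (adjusted p = 0.00706). Fzd10 ranged from 0.485 to 2.21 CPM in tumours and from 0.577 to 2.37 CPM in brains (-0.14 ± 0.66, adjusted p = 0.861), and 0.58 without brain 1, which did not pass either. Its antisense transcript Fzd10os was at 0.776, 0.361, 0.378, 7.92 and 0.162 CPM in tumours 1 to 5, against 2.88, 1.30 and 1.91 CPM in brains 1 to 3, with tumour 4 alone above the brains (0.05 ± 1.14, adjusted p = 0.973).

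Per transcript length, Fzd3 held 6.22% to 19.3% of the summed receptor FPKM in tumours and 69.6% to 70.8% in brains. The sum itself overlapped between groups, at 32.6 to 60.9 FPKM in tumours and 43.5 to 49.6 FPKM in brains. In tumours the RNA was spread over several receptors, with 9.46% to 35.3% in Fzd1, 8.61% to 25.9% in Fzd6, 12.6% to 22.9% in Fzd7 and 7.71% to 18.2% in Fzd8. Of these 4 receptors, none held more than 7.07% in any brain.

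The co-receptors differed from each other. Lrp5 was at 17.7, 24.0, 27.1, 10.9 and 22.5 CPM in tumours 1 to 5, against 4.23, 3.90 and 2.73 CPM in brains 1 to 3. It rose in every tumour (2.50 ± 0.35, adjusted p = 0.000222), with tumour 4 the lowest. Lrp6 was at 133, 113, 150, 148 and 179 CPM in tumours 1 to 5, against 139, 128 and 126 CPM in brains 1 to 3. Its groups overlapped, and the log2 fold change was 0.14 ± 0.16 with a 95% interval from -0.24 to 0.53 (adjusted p = 0.431). Per length, Lrp6 remained the more abundant of the pair in both tissues, at 14.8 FPKM against 3.88 FPKM for Lrp5 in tumours, and 13.5 FPKM against 0.689 FPKM in brains.

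**Figure D3:**
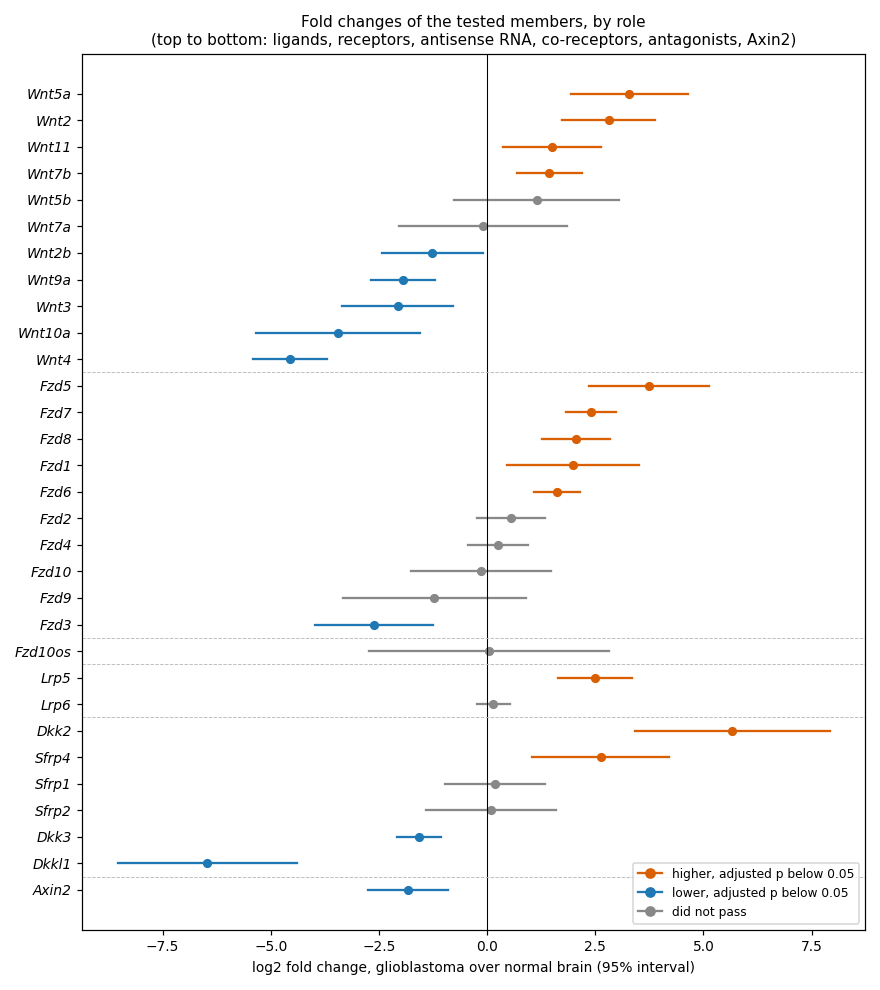
Log2 fold change of glioblastoma over normal brain for the 31 tested members with 95% intervals, ordered by role from ligands at the top to Axin2 at the bottom; orange is higher, blue lower and grey did not pass. Dkk2 stands furthest to the right at 5.67 and Dkkl1 furthest to the left at -6.47. Of the 10 receptors, 5 are to the right and called, beside 37.1% of all tested genes called higher.

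Of the 10 secreted proteins grouped by name as antagonists, 2 rose (Dkk2 and Sfrp4) and 2 fell (Dkk3 and Dkkl1). Another 2 did not pass and 4 were not tested. Whether Dkk3 and Dkkl1 block Wnt signals was not tested, so their falls are not read as a loss of antagonists. Dkk2, which binds LRP5 and LRP6, was at 73.5, 114, 186, 12.2 and 60.1 CPM in tumours 1 to 5, against 1.69, 1.73 and 1.77 CPM in brains 1 to 3. The brains were nearly equal, all tumours were above them, and tumour 4 was the lowest and tumour 3 the highest of the tumours. Dkk2 had a log2 fold change of 5.67 ± 0.92 (95% interval 3.42 to 7.91, adjusted p = 0.000564). Its group totals were 3530 fragments in tumours and 35 in brains.

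Sfrp4, one of the secreted proteins with a Frizzled-like domain, was at 11.01, 3.07, 6.55, 19.8 and 5.58 CPM in tumours 1 to 5, against 1.86, 1.15 and 1.5 CPM in brains 1 to 3. Every tumour was above every brain, and tumours 4 and 1 were highest (2.62 ± 0.64, adjusted p = 0.00573). Sfrp1 was at 6.67, 6.49, 2.52, 14.3 and 6.63 CPM in tumours 1 to 5, against 7.78, 5.48 and 6.27 CPM in brains 1 to 3. It did not pass (0.19 ± 0.47, 95% interval -0.97 to 1.35), and its value in tumour 4 was the highest and that in tumour 3 the lowest of all libraries. Sfrp2 ranged from 0.361 to 2.45 CPM in tumours and from 0.677 to 1.91 CPM in brains and did not pass (0.10 ± 0.62).

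Dkk3, a divergent member of the family found in neurons, had the highest mean per length among the genes grouped as antagonists in both tissues. Dkk2 was above it in tumour 3. Dkk3 had 43.5 FPKM in tumours and 131 FPKM in brains. It was at 125, 118, 155, 204 and 130 CPM in tumours 1 to 5, against 504, 446 and 358 CPM in brains 1 to 3. The groups did not overlap (-1.57 ± 0.21, adjusted p = 0.000152). Dkkl1, a Dkk-like secreted protein best known from testis, had 5 fragments in the tumours and 219 in the brains. It was at 0, 0.541, 0.252, 0 and 0 CPM in tumours 1 to 5, against 15.7, 9.96 and 7.77 CPM in brains 1 to 3. The log2 fold change was -6.47 ± 0.84 (adjusted p = 0.000159), and -7.50 without tumour 2. All 5 markers of cortical and hippocampal excitatory neurons fell with Dkk3 and Dkkl1. They summed to 5.94 to 20.6 CPM in tumours against 1031 to 1113 CPM in brains. All 5 oligodendrocyte and all 3 dentate granule neuron markers fell too. So did 4 of 6 neuronal, 4 of 6 astrocyte and 3 of 5 thalamic markers, and the others of these lists did not pass. Of 6 tested choroid plexus markers, 4 were lower and 1 was higher. The part of these cell types in the falls of Dkk3 and Dkkl1 was not tested.

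Dkk1, Dkk4 and Sfrp5 had too few fragments to test, and Wif1 reached the filter's cut in only 1 tumour and 1 brain. Wif1 had 72 fragments in tumours, 60 of them in tumour 5, and 23 in brains. Dkk1, a strong inhibitor of the beta-catenin route, had 13 fragments, all in tumour 1 at 2.02 CPM, and 0 in the brains. Dkk4 had 0 fragments in all libraries. Wif1, which binds Wnt proteins directly, was at 4.85 CPM in tumour 5, at 0 to 0.524 CPM in the other tumours, and at 0.721 to 1.77 CPM in brains. Sfrp5 stayed between 0.155 and 0.524 CPM in tumours and between 0.433 and 0.682 CPM in brains. Frzb, an SFRP whose symbol falls outside the rule, did not pass at 14.0 ± 7.83 CPM in tumours and 22.6 ± 2.73 CPM in brains (SD, n = 5 and 3).

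Axin2, a scaffold of the beta-catenin destruction complex whose gene is switched on by beta-catenin, fell. It was at 8.53, 3.43, 2.52, 7.45 and 7.43 CPM in tumours 1 to 5, against 20.8, 20.2 and 22.2 CPM in brains 1 to 3. The brains were nearly equal and each tumour was below them. Axin2 had a log2 fold change of -1.83 ± 0.37 (95% interval -2.74 to -0.91, adjusted p = 0.00213). Its promoter window, printed above, held no CTTTGAT, which says nothing about binding.

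The tumours differed more among themselves than the brains did. Over the tested members the median SD of log2 CPM was 0.74 among tumours and 0.31 among brains, beside 0.38 and 0.15 over all tested genes. The SD was larger in tumours for 27 of the 31 tested members, and for 85.1% of all genes. Tumour 4, the deepest library, had the highest value of 13 of the 31 members, or 41.9%, and of 32.4% of all genes. It was the highest tumour for, among others, Fzd1, Fzd3, Fzd9, Wnt5b, Wnt7a, Sfrp1 and Sfrp4, and the lowest for, among others, Dkk2, Wnt5a, Fzd5, Lrp5 and Wnt7b. The highest tumour held 14.2 times the Wnt7a level of the lowest, 8.4 times the Wnt5b level, 15.3 times the Dkk2 level, 7.28 times the Fzd1 level and 4.99 times the Fzd3 level. For Fzd7, Fzd6 and Wnt7b the same ratio was 1.49, 1.72 and 1.82. Oligodendrocyte precursor markers, as given above, and astrocyte markers were also highest in tumours 4 and 1. Astrocyte markers summed to 1048, 825, 693, 1752 and 829 CPM in tumours 1 to 5. Brains 1 to 3 had 4505, 4914 and 4604 CPM. Of these 6 markers, 4 were lower and 2 did not pass. Among tumours, tumour 4 was also highest in oligodendrocyte markers and lowest in neuronal, macrophage and microglia, endothelial, and pericyte and smooth muscle markers. The part of these cell types in these differences was not tested.

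**Figure D4:**
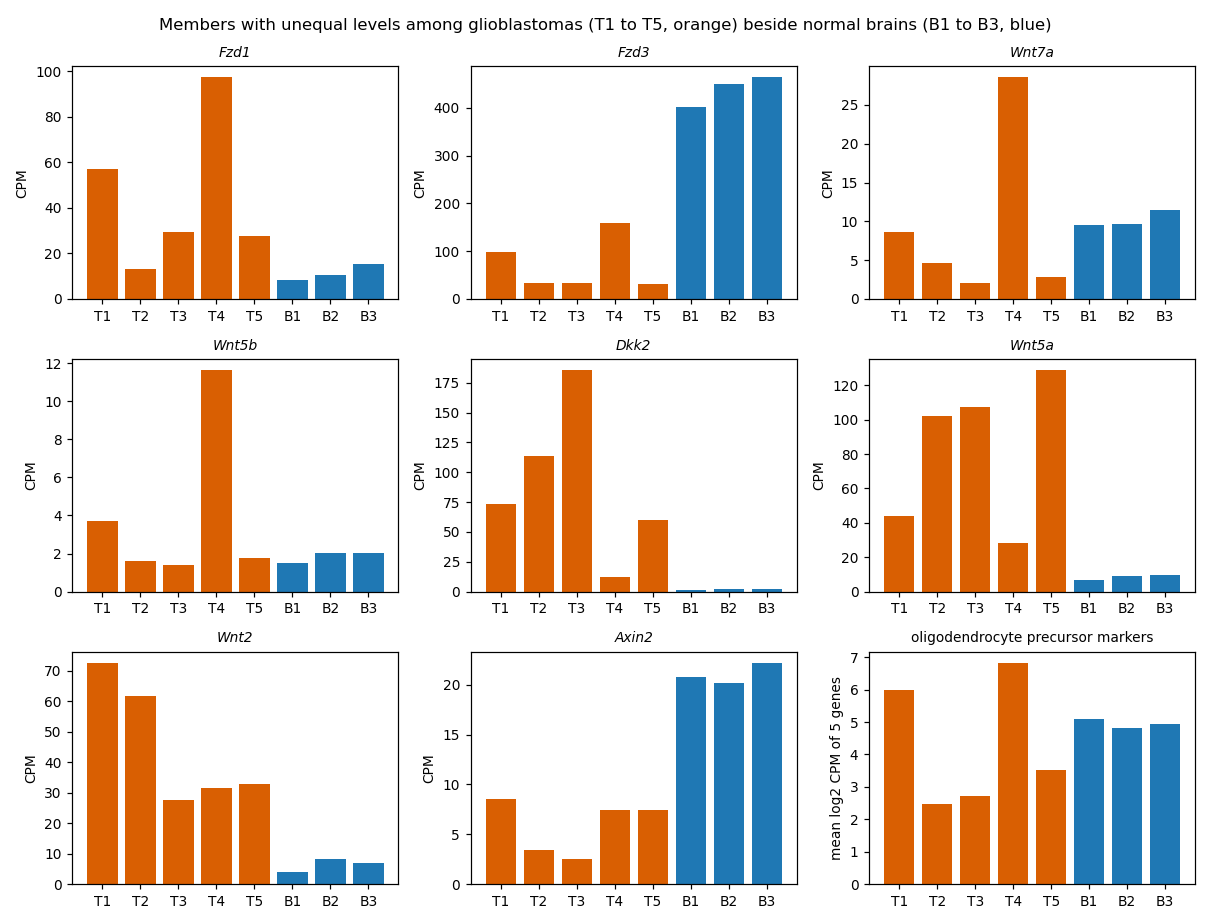
CPM of 8 members in tumours 1 to 5 (T1 to T5, orange) and brains 1 to 3 (B1 to B3, blue), with the mean log2 CPM of 5 oligodendrocyte precursor markers in the last panel. Fzd1, Fzd3, Wnt7a and Wnt5b are highest among tumours in T4, and Dkk2 and Wnt5a are lowest among tumours in T4.

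Of 75 further genes of the pathway in 8 lists, 65 were tested, 16 were higher and 27 lower, or 24.6% and 41.5% of those tested, beside 37.1% and 33.9% of all genes. In the list for ligand processing and release, 2 of 6 genes were higher and 3 lower (median log2 fold change 0.08, beside 0.06 for all genes). Wls, the carrier of Wnt proteins, was at 189, 410, 397, 121 and 356 CPM in tumours 1 to 5, against 56.3, 47.6 and 68.6 CPM in brains 1 to 3 (2.36 ± 0.43, adjusted p = 0.00117). Porcn, which adds their lipid, was at 9.46, 5.23, 8.44, 15.7 and 7.43 CPM in tumours 1 to 5, against 44.7, 47.6 and 46.8 CPM in brains 1 to 3 (-2.31 ± 0.30, adjusted p = 0.000157). The 2 genes of ligand production thus moved in opposite directions. Notum, which removes the lipid, was also higher (2.35 ± 0.68; adjusted p = 0.0539 without brain 2), and Gpc4 was lower (-1.05 ± 0.42, adjusted p = 0.0495), a call lost in 11 alternatives. The third lower gene, Trabd2b, another Wnt-inactivating enzyme (-0.85, adjusted p = 0.0498), lost its call in 14. The count of lower genes was 1 without any single one of tumours 1, 2, 3 and 5 and brains 2 and 3. With the most abundant accession alone it was 0, and Porcn then had an adjusted p of 0.0521.

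Of the R-spondin and receptor turnover genes, 1 of 7 tested was higher and 5 lower (median -1.14). R-spondins strengthen Wnt signals by sparing Frizzleds from removal. Rspo2 was at 0.620, 0, 0.252, 0.349 and 0.808 CPM in tumours 1 to 5, against 10.1, 28.3 and 29.4 CPM in brains 1 to 3 (-5.66 ± 0.59, adjusted p = 4.31e-05). Lgr5, an R-spondin receptor and stem cell marker, fell by 3.31 ± 0.60, while its relative Lgr6 rose by 5.01 ± 0.45 (adjusted p = 1.88e-05) and was at 27.6, 53.8, 50.5, 22.9 and 36.8 CPM in tumours 1 to 5, against 0.677, 1.15 and 1.64 CPM in brains 1 to 3. The other lower genes were Rspo3, Lgr4 and Znrf3. Rspo4 and Rspo1 did not reach the main filter. Rspo4 had 95 fragments in tumours and 1 in brains. It was tested only under looser filters, which it met through the tumours, so its calls as higher there are no further support. Rspo1 went the other way, with 18 fragments in tumours and 59 in brains. It was lower with no filter (-3.20, adjusted p = 0.0103) and without brain 3 (-3.73, adjusted p = 0.00431). Rspo1 was at 6.60, 2.31 and 0.545 CPM in brains 1 to 3. Without brain 3, its lowest brain, it met the filter through the other brains alone. These calls are thus no further support either.

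Of the other extracellular antagonists and DKK co-receptors, 4 of 9 were tested and 3 were higher (median 1.06), beside 37.1% of all genes. The 3 were Kremen1, a DKK co-receptor, by 1.28 ± 0.20, Igfbp4 by 1.93 ± 0.57 and Apcdd1. For Igfbp4 the adjusted p was 0.0515 with brain 2 left out and 0.0570 with brain 3 left out. For Apcdd1 it was 0.0947 with brain 1 left out, 0.0587 with brain 3 left out and 0.0685 with brain 1 and tumour 4 left out, so that 1 gene of the list was higher without brain 3. Without tumour 5, Frzb was lower (-1.01, adjusted p = 0.0376). Of 4 genes of norrin and the vessel receptor complex, Adgra2 was higher (2.94 ± 0.43, adjusted p = 0.000307) and Reck lower (-1.36 ± 0.46, adjusted p = 0.0243), and 2 did not pass (median 0.32). Adgra2 and Reck are partners that let brain endothelium respond to Wnt7a and Wnt7b. For Reck it was 0.0629 with brain 1 left out and 0.0772 with brain 2 left out. Of 6 endothelial markers, 5 were higher, at 219 to 414 CPM in tumours against 89.9 to 107 CPM in brains.

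Of 13 tested genes for alternative Wnt receptors and planar polarity, 3 were higher and 6 lower (median -0.88). Vangl1 and Ptk7 were the largest rises, with 3.05 ± 0.75 and 2.3 ± 0.32, and Ryk was the third higher gene. Celsr2 and Celsr3, cadherins of axon guidance, were the largest falls, with -5.05 ± 0.45 and -4.61 ± 0.27. Of 15 cytoplasmic regulators of beta-catenin, 3 were higher and 6 lower (median -0.30). Csnk1e and Axin1 rose by 0.96 ± 0.14 and 0.78 ± 0.21, and Ctnnb1, beta-catenin itself, rose by 0.75 ± 0.14 (adjusted p = 0.00102). Apc2 fell by 2.80 ± 0.64 and Btrc, which marks beta-catenin for destruction, fell by 1.98 ± 0.40.

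Of 11 tested nuclear TCF genes and co-factors, 1 was higher and 6 lower (median -0.57). Tcf7 was at 9.31, 9.02, 7.31, 3.96 and 10.4 CPM in tumours 1 to 5, against 1.18, 0.577 and 0.273 CPM in brains 1 to 3 (3.57 ± 0.53, adjusted p = 0.000339). The co-factor genes Pygo1 and Bcl9 fell by 2.56 ± 0.59 and 2.03 ± 0.20. Without tumour 4, 3 genes of this list were higher, with Lef1 at 1.30 (adjusted p = 0.0137).

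Of 12 tested target and feedback genes of beta-catenin, 5 were higher, 2 lower and 5 did not pass (median 0.87), beside 37.1% higher and 33.9% lower of all genes. Ccnd1, a cyclin that many other signals also control, rose by 5.24 ± 0.42 to 1878, 1545, 1620, 3661 and 1328 CPM in tumours 1 to 5, against 50.9, 56.0 and 52.1 CPM in brains 1 to 3. Myc, likewise a target of many pathways, rose by 3.73 ± 0.45 (adjusted p = 9.48e-05). Tcf7, Notum and Apcdd1 were the other higher genes, with the limits given above for Notum and Apcdd1, and Lgr5 and Znrf3 were the 2 lower ones (Znrf3 by 0.79 ± 0.22). Without tumour 4, 4 genes were lower, with Rnf43 at -2.08 (adjusted p = 0.00995) and Tnfrsf19 at -2.28 (adjusted p = 0.000978). Rnf43 was at 1.55, 0.541, 0.252, 4.31 and 0.323 CPM in tumours 1 to 5, against 3.38, 2.02 and 2.73 CPM in brains 1 to 3, so that tumour 4 alone was above the brains.

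**Figure D5:**
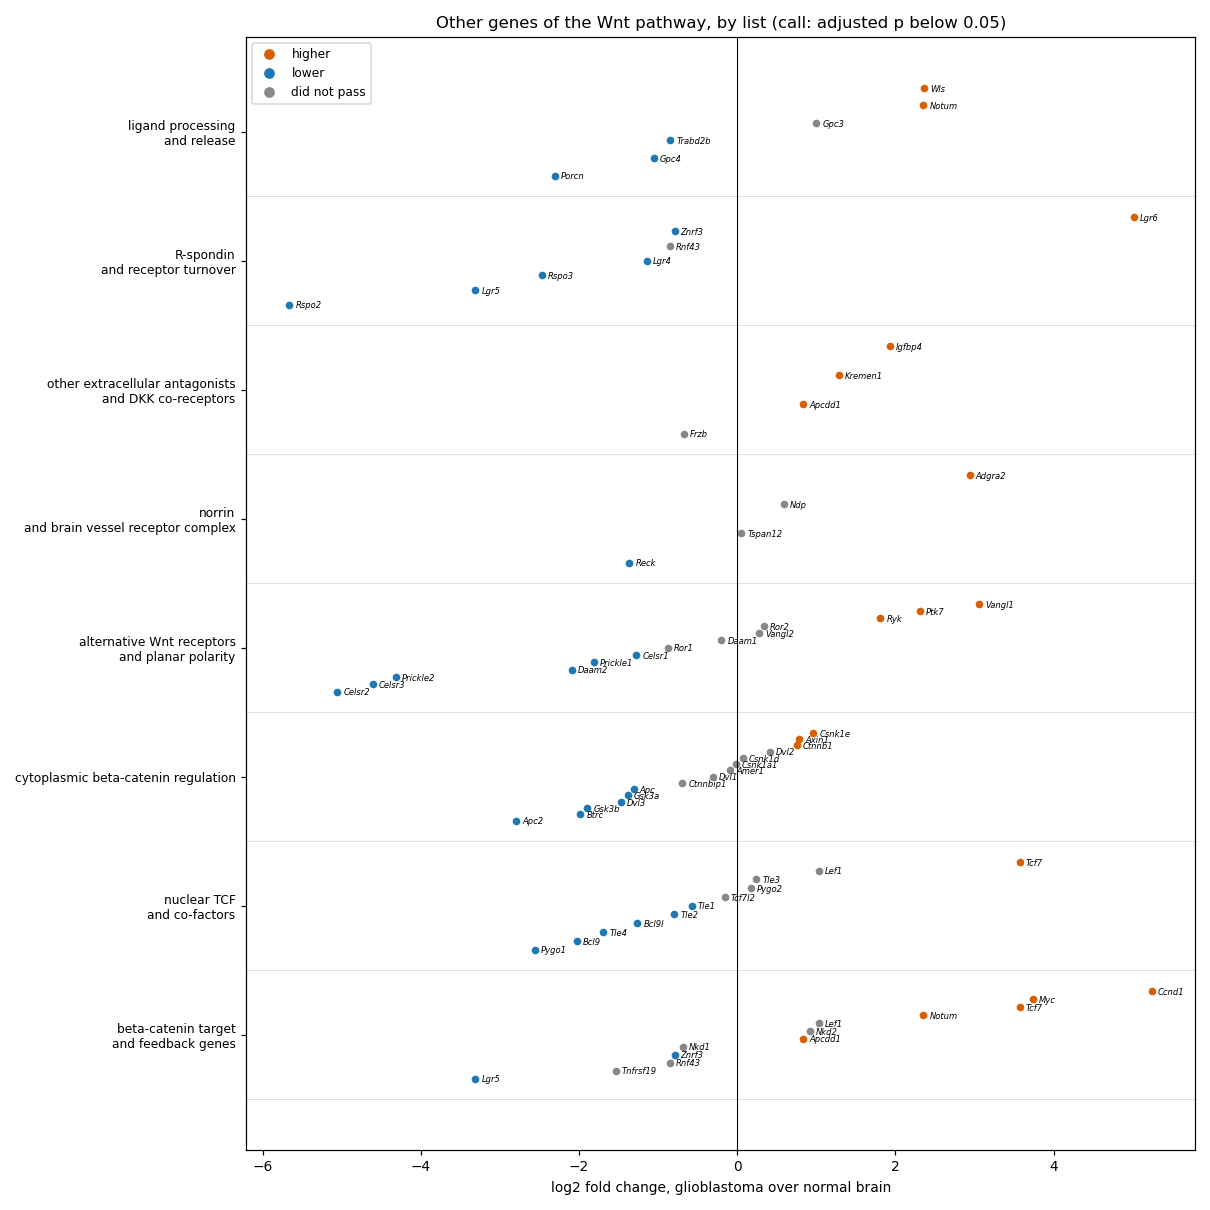
Log2 fold change of glioblastoma over normal brain for the tested genes of the 8 further lists, one list per band; orange is higher, blue lower and grey did not pass. Lgr6 and Ccnd1 lie furthest to the right at 5.01 and 5.24, and Rspo2 and Celsr2 furthest to the left at -5.66 and -5.05.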

How the data were processed

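RNA from 5 mouse glioblastomas and 3 normal mouse brains was purified on RNeasy columns, treated with DNase and sequenced as TruSeq RNA libraries, per the labels. The submitters' processing notes name STAR 2.3.0e, Cuffdiff 2.1.1 and the mm9 build; no source used here gives the annotation release, the filters or a strand setting. The deposited table holds estimated counts of fragments for 30967 RefSeq accessions, not normalized, together with the authors' FPKM. Samples were grouped by the tissue named in the labels.

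Accessions were matched to symbols with the RefSeq table of GRCm38 (30474), and with GENCODE M21 (178); 315 without a symbol kept their own identifiers. Estimated counts were summed per gene and rounded, since 97.8% of sums but 33.2% of accession values were whole within 0.01 in genes with several accessions. All member sums were whole. Fragments of Axin2, Fzd5, Fzd6, Sfrp2, Wnt11 and Wnt7b could include those of an overlapping gene on the opposite strand. FPKM was summed per gene.

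The test was edgeR 4.0.16 (TMM factors, default filter, robust quasi-likelihood F test) fitted on 14641 genes, with Benjamini-Hochberg adjustment over all of them. Each SE is the log2 fold change over the root of F; intervals are 95%, with 6 degrees of freedom. Alternatives were DESeq2 1.42.0, other scalings and filters, limma 3.58.1 on log2(FPKM + 1) and log2(FPKM + 0.1), left-out libraries, left-out genes with shared fragments, and single accessions. The members, gene lists and tests were chosen with earlier results of these data known. Every member was named, with values in each library for those with at least 2 CPM in the mean of a group or a call; of each other list, up to 2 called genes per direction with the largest change were named, and others were named after their values were seen. The software was R 4.3.3, with numpy 2.4.6, pandas 2.3.3 and, for figures, matplotlib 3.10.9. The depth limit, taken as 3 fragments in a library, covers counting error only.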

Additional observations from a re-analysis of the deposited data

Results flagged for a closer look

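Dixon's ratio is the gap to the nearest tumour divided by the range, with a critical value of 0.71 for 5 samples. Normally distributed values exceed it by chance in about 1 in 20. Among the 29 members with a call or a group mean of at least 2 CPM, 3 exceeded it. In each of the 3 the far sample was tumour 4, on the high side. Tumour 4 was also the highest tumour for 32.4% of all tested genes. The ratio was not computed over all genes, so the count says nothing particular about Wnt genes. Fzd10os stood at 7.92 CPM there (ratio 0.921), Wnt5b at 11.6 CPM (ratio 0.772) and Wnt7a at 28.5 CPM (ratio 0.748).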

How the results depend on the processing

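Of the 21 called members, 18 kept their direction and their side of the threshold in all of the up to 19 alternatives in which they could be tested; Fzd1, Wnt11 and Wnt2b did not. Of the 10 members that did not pass, 7 stayed so, and Fzd2, Fzd9 and Wnt7a passed without tumour 4. With brain 1 left out as well, Fzd9 still passed, while Fzd2 and Wnt7a did not. Leaving out 1 library, or brain 1 and tumour 4 together, gave 10 to 13 higher and 8 to 11 lower members, and all other alternatives 11 to 12 higher and 6 to 9 lower, beside 12 and 9. The lowest count of lower members, 6, came with a filter of 5 CPM in 3 samples, under which 22 members were tested. Scaling by library size only, or with upper quartile factors, moved the median log2 fold change of all genes to 0.20 and 0.18 from 0.06, and Wnt2b lost its call under both. Among further pathway genes no called gene changed direction in any alternative, but several lost their call. Besides those given above, these were Tle2 in 11 alternatives, Celsr1 in 4, Tle1 in 2 and Axin1 in 1. No paired analysis was possible because replicate numbers only name libraries within a group, and nothing in the labels ties a tumour to a brain. Of the 12 untested members, 9 could be tested with no filter, and 1 of these, Wnt9b, was then lower. Depth limits the 12 untested members other than Wif1, which reached the filter's cut in only 1 tumour and 1 brain. For Wnt1, Wnt8a and Dkk4, with 0 fragments, a level below about 0.193 to 0.546 CPM before TMM scaling in a library could not be told from 0.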
